A study of Homo sapiens with 24 samples.

Results

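The experiment described here asked what ABBV-744 at 50 nM did to the transcriptome of HepG2 cells that also received interferon gamma (IFNγ). Its members were chosen by title and not by any measured value. They are the 3 libraries of cells given IFNγ+ABBV-744 50 nM and the 3 libraries of cells given IFNγ alone, 6 of the 24 libraries of the series. HepG2 is an established human hepatocellular carcinoma line that keeps much of the secretory programme of hepatocytes. The other 18 libraries come from the same line and form 6 groups of 3. They had the solvent DMSO, an inhibitor without IFNγ (ABBV-075 at 50 nM, or ABBV-744 at either 50 nM or 500 nM), or IFNγ together with ABBV-075 at 50 nM or ABBV-744 at 500 nM. The labels give neither the IFNγ dose nor the duration of treatment. They also do not say whether the 3 libraries of a group came from separate cultures. The study's methods state a duration and independent samples for DMSO and ABBV-075 beside inhibitors that are not in this series, and for no group with IFNγ or ABBV-744. For the groups compared here the p-values therefore measure only the spread between these libraries.

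BET proteins, such as BRD2 and BRD3, bind acetylated histones through a pair of bromodomains, BD1 and BD2, and help RNA polymerase II leave the promoter through the kinase complex P-TEFb. ABBV-075 blocks both bromodomains, whereas ABBV-744 prefers BD2, the domain tied more to inducible than to steady transcription. IFNγ signals through JAK kinases to GAS elements in promoters, switches on IRF1, and with it antigen presentation and antiviral genes. In hepatocytes the cytokine adds this programme to the expression of plasma proteins, bile acid enzymes and lipid enzymes.

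The 6 libraries held between 3384195 and 3985919 reads on the strand of annotated genes, within the range of 2978982 to 4304103 over all 24 libraries. Reads that aligned to several places were not counted, and made up 58.3% to 66.4% in the IFNγ libraries and 57.5% to 59.6% in the IFNγ+ABBV-744 libraries. Reads that matched no gene on that strand made up 17.5% to 23.3% and 22.8% to 24.1% in the same order. What part these shares have in the results was not tested. All 8 HepG2 markers were present, with summed levels of 16317 to 18211 CPM (counts scaled to the size of the library) in the IFNγ libraries and 20323 to 22650 CPM in the IFNγ+ABBV-744 libraries. Of 10 markers of other cell types, 5 (PTPRC, CD3E, COL1A1, COL1A2 and COL3A1) had no read in any of the 6 libraries. The summed level of the 10 markers was 46.1 to 48.4 CPM with IFNγ and 22.1 to 26.0 CPM with the inhibitor, nearly all of it from CD68, ACTA2 and CD14, the 3 that could be tested. All 3 were lower with the inhibitor, and their part in the results was not tested. The IFNγ label held: IRF1, a transcription factor that IFNγ induces early, measured 13.7, 10.9 and 11.4 CPM in the DMSO libraries and 209.8, 226 and 252 CPM in the IFNγ libraries (log2 fold change 4.26, SE 0.12, adjusted p = 4.53e-27). Between IFNγ and DMSO, 310 of 11217 genes were higher (2.76%) and 78 lower (0.695%). Between IFNγ+ABBV-744 and DMSO, 3123 of 11269 were higher (27.7%) and 2757 lower (24.5%).

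Adding ABBV-744 50 nM to IFNγ changed many of the 11150 genes that could be tested, with gains in transcripts of low GC content and losses in transcripts of high GC content. By edgeR's quasi-likelihood test, with p-values adjusted after Benjamini and Hochberg, 3060 genes were higher (27.4%) and 2706 lower (24.3%) at an adjusted p of at most 0.05. With a log2 fold change of at least 1.5 as a further requirement, 216 were higher (1.94%) and 41 lower (0.368%). Each of these 257 genes had no overlap between the 3 IFNγ libraries and the 3 IFNγ+ABBV-744 libraries. The same was true of 6485 of all 11150 genes tested, so it adds little to the calls. With 1 library left out, the 41 decreases became 50 to 79 and the 216 increases 177 to 290. Between 11307 and 11376 genes were then tested. The 216 increases had a median transcript GC content of 37.4%, the 41 decreases 55.2% and all genes tested 47.5%. Transcripts under 45% GC made up 98.1% of the 216 increases and 40.5% of the genes tested.

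The trend ran through the whole transcriptome and through each treated library. Over 10979 genes with a known transcript, the log2 fold change had a Spearman rho of -0.677 with GC content and 0.298 with length. Both are descriptions across genes, which share libraries and base composition. From the quintile of genes with the lowest GC content to that with the highest, the median log2 fold change was 0.78, 0.31, -0.11, -0.31 and -0.32. Against the mean of all 24 libraries, rho with GC content was -0.668, -0.666 and -0.623 in the IFNγ+ABBV-744 50 nM libraries and 0.177, 0.371 and 0.524 in the IFNγ libraries, so the groups did not overlap. Length followed a weaker trend, from a median log2 fold change of -0.23 in the quintile of shortest transcripts to 0.28 in the longest.

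**Figure D1:**
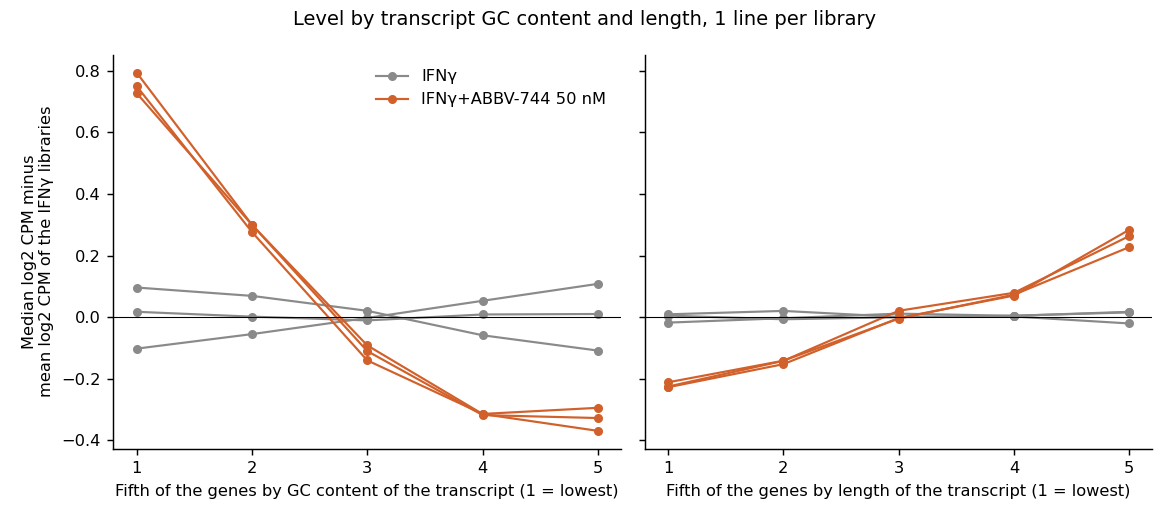
Median log2 CPM of each library minus the mean of the IFNγ libraries (vertical axis), by quintile of the genes in transcript GC content (left) and length (right), with 1 line per library, grey for IFNγ and orange for IFNγ+ABBV-744 50 nM. The 3 orange lines fall together from the lowest to the highest GC quintile and rise with length, while the grey lines spread around 0.

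Because of this trend most genes are given with a second value, from a fit in which every library's smooth trend on GC content was removed. By construction this correction also takes away any response that itself follows GC content. It left 1817 genes higher (16.3%) and 2025 lower (18.2%), with 18 and 34 past a log2 fold change of 1.5, and rho with GC content became -0.029. Called in the same direction without and with the correction were 1315 higher genes (11.8%) and 1281 lower genes (11.5%), and 183 genes were called in opposite directions. A call in both fits still needs the uncorrected call. Without the correction 78.5% were higher and 1.46% lower in the lowest GC quintile, and 1.37% and 43.2% in the highest. Gene lists are set beside all genes below, and not beside genes of like GC content. Of the 216 large increases 197 were still called higher, 14 of them past 1.5. All of the 41 large decreases were still called lower, 20 of them past 1.5. Whether the GC trend is a response of the cells or arose in the handling or sequencing of the libraries was not tested.

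DHRS2 and GLUL, the genes that mark this experiment, moved in opposite directions and far beyond the spread of the replicates. DHRS2 (chr14:23630115-23645639, GRCh38, from GENCODE 44), a dehydrogenase of the short-chain family, measured 2311, 2368 and 2315 CPM in the IFNγ libraries and 5450.3, 5371 and 5616 CPM in the IFNγ+ABBV-744 libraries. The groups were far apart, with little spread inside either. DHRS2 rose by 2.35 times (log2 fold change 1.25, SE 0.065, adjusted p = 7.09e-16), and the corrected log2 fold change was 1.46, adjusted p = 1.02e-17. In the comparison without IFNγ it measured 2239, 2123 and 2093 CPM with DMSO and 7009.6, 7242 and 6832 CPM with ABBV-744 50 nM alone.

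GLUL (chr1:182378098-182392206, GRCh38), glutamine synthetase, which fixes ammonia in pericentral hepatocytes and is a target of Wnt signalling there, measured 555, 563 and 536 CPM in the IFNγ libraries and 177, 186 and 177 CPM in the IFNγ+ABBV-744 libraries. All treated libraries were low, and the groups did not overlap. GLUL fell by 1.59 on the log2 scale (SE 0.077, adjusted p = 1.25e-16), and the corrected value was -1.70, adjusted p = 1.27e-18. Without IFNγ the same dose left it at 549, 631 and 608 CPM, beside 586, 587 and 600.3 CPM with DMSO. It was also low with IFNγ+ABBV-744 500 nM, at 210.4, 193 and 179.6 CPM, and with IFNγ+ABBV-075 50 nM, at 253, 237 and 236 CPM. With ABBV-075 alone the 3 libraries were at 241, 358 and 531 CPM, and their rho with GC content was -0.576, -0.379 and 0.199 in the same order. In the IFNγ+ABBV-744 500 nM group, where GLUL was lowest in the third library, rho was -0.607, -0.51 and -0.28. What part the GC trend has in the level of GLUL was not tested.

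**Figure D2:**
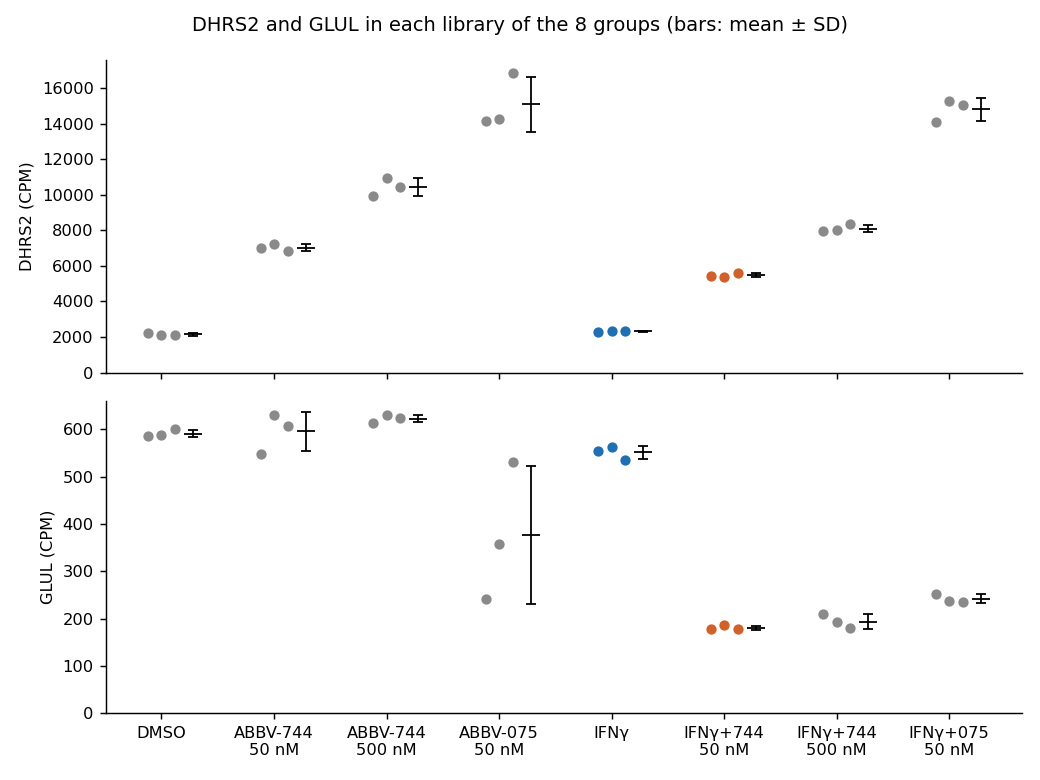
Level of DHRS2 (top) and GLUL (bottom) in CPM in each of the 24 libraries by treatment, with 1 point per library and a bar for the mean ± SD of 3 libraries. DHRS2 is raised by every inhibitor treatment, whereas GLUL is low in all 9 libraries that had IFNγ together with an inhibitor.

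Changes among relatives of DHRS2 were about as frequent as among all genes, where 11.8% rose and 11.5% fell without and with the correction. Of 19 tested dehydrogenases related to DHRS2, 1 rose (DHRS2 itself) and 3 fell in both fits, among them HSD17B2 (-0.82, corrected -1.11), which inactivates oestradiol and testosterone, and DHRS3 (-0.75, corrected -0.42), which reduces retinal. Of 21 glutamine and pericentral Wnt genes, 6 rose and 4 fell in both fits. The neutral amino acid carriers SLC1A5 (-1.07, corrected -0.75) and SLC1A4 (-0.66, corrected -0.63) fell with GLUL. The Wnt receptor partner LGR5 (0.92, corrected 0.75) and the Wnt-restraining ubiquitin ligases ZNRF3 (0.44, corrected 0.74) and RNF43 (0.39, corrected 0.61) rose, while AXIN2, the usual readout of Wnt signalling, measured -0.22 (corrected 0.064) and was not called.

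Among the drug's own targets and the elongation machinery, 2 of 11 tested genes rose and 2 fell in both fits, beside 11.8% and 11.5% of all genes. In the corrected fit by itself 4 of the 11 were higher and 2 lower. BRD3 (-0.94, corrected -0.67) fell, and BRD2 measured -0.031 without the correction, where it was not called, and 0.24 with it. The cyclins of P-TEFb, CCNT1 (0.91, corrected 0.41) and CCNT2 (1.31, corrected 0.48), rose. MYC, an oncogene often lowered by BET inhibitors, measured 108, 119 and 119 CPM in the IFNγ libraries and 71.1, 75.7 and 72.4 CPM in the IFNγ+ABBV-744 libraries and fell (log2 fold change -0.64, SE 0.096, adjusted p = 1.24e-06, corrected -0.48). HEXIM1, the P-TEFb inhibitor widely used as a marker of BET inhibition, was not called without the correction (log2 fold change 0.092, SE 0.13, adjusted p = 0.565). It measured 47.7, 49.3 and 44.8 CPM in the IFNγ libraries and 55.5, 38.7 and 54.4 CPM in the IFNγ+ABBV-744 libraries. The corrected value of HEXIM1 is not given here, so the missing call covers the uncorrected fit only.

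The 10 largest decreases all kept their call with the correction, at corrected log2 fold changes of -2.58 to -1.63. CLDN2, the claudin that forms cation-permeable tight junctions, measured 11.7, 17.7 and 17.6 CPM in the IFNγ libraries and 2.17, 2.83 and 2.21 CPM in the IFNγ+ABBV-744 libraries (log2 fold change -2.67, SE 0.28, adjusted p = 1.37e-09). AKR1D1, the reductase that makes the A/B-cis ring of bile acids, measured 16.4, 18.6 and 12.6 CPM in the IFNγ libraries and 3.62, 4.52 and 3.04 CPM in the IFNγ+ABBV-744 libraries (log2 fold change -2.06, SE 0.26, adjusted p = 3.64e-08), and its decrease was larger after the correction (-2.58, adjusted p = 7.95e-10). For both genes the groups did not overlap, which the rule that named them required. C1R, the serine protease that starts the classical complement pathway, measured 3.48, 5.11 and 5.49 CPM with DMSO, 66.0, 66.1 and 72.4 CPM with IFNγ and 12.5, 14.1 and 13.8 CPM with IFNγ+ABBV-744. With the inhibitor it lay between the untreated and the IFNγ level (log2 fold change -2.32, SE 0.13, adjusted p = 4.22e-15, corrected -1.99).

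The other 7 were PRF1 (-2.59), the pore protein of cytotoxic cells, CD14 (-2.47), the co-receptor for lipopolysaccharide, ITIH4 (-2.42), an acute-phase plasma protein, SLC17A2 (-2.07), INHBE (-1.98), a hepatokine of the activin family, C6orf132 (-2.19) and PXDC1 (-1.97). PRF1, CD14, ITIH4, SLC17A2 and C6orf132 were scarce, with group means of 6.11, 4.10, 6.43, 6.86 and 4.63 CPM under IFNγ. Other large decreases by the corrected value, picked after the values were seen, were SGK1 (-1.69, corrected -2.15), a kinase that raises sodium transport, TNFSF4 (-1.64, corrected -2.21), the OX40 ligand, and CYP19A1 (-1.64, corrected -1.99), aromatase.

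The largest increases named here were all transcripts of 32.9% to 42.6% GC, and their values shrank with the correction. BRCA2, a mediator of homologous recombination, measured 38.2, 30.7 and 31.3 CPM in the IFNγ libraries and 225, 134 and 199 CPM in the IFNγ+ABBV-744 libraries (log2 fold change 2.5, SE 0.14, adjusted p = 1.69e-15), and its corrected value was 1.61, adjusted p = 1.49e-11. CASP8AP2, a protein needed for histone transcript processing, measured 18.0, 14.5 and 13.7 CPM in the IFNγ libraries and 70.6, 60.8 and 71.6 CPM in the IFNγ+ABBV-744 libraries (log2 fold change 2.15, SE 0.14, adjusted p = 2.87e-14, corrected 1.33). In both genes every treated library was high, and the rule that named them required groups without overlap. TEX15 (2.74, corrected 1.79), which acts in meiosis and transposon silencing, had the largest estimate under the naming rule, which asks for a log2 CPM of 1 on average and groups without overlap, from a mean of only 1.30 CPM under IFNγ. The zinc-finger genes ZNF28 (2.31, corrected 1.70), ZNF449 (2.26, corrected 1.58) and ZBTB41 (2.17, corrected 1.04), the centrosomal CEP128 (2.21, corrected 1.91), KIAA1033 (2.13, corrected 1.19), a subunit of the WASH complex, and FAM111B (2.13, corrected 1.32) rose as well. Without IFNγ replicate 2 the value of CEP128 was 3.06. Among increases ranked by the corrected value, again picked after the values were seen, BHMT (1.80, corrected 1.71), a methyltransferase that remakes methionine from homocysteine, hardly changed with the correction, from group means of 1.39 CPM and 4.85 CPM. ZNF symbols accounted for 32 of the 216 large increases and 369 of the genes tested, and many of them share repeated zinc-finger sequence in which reads are hard to place.

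**Figure D3:**
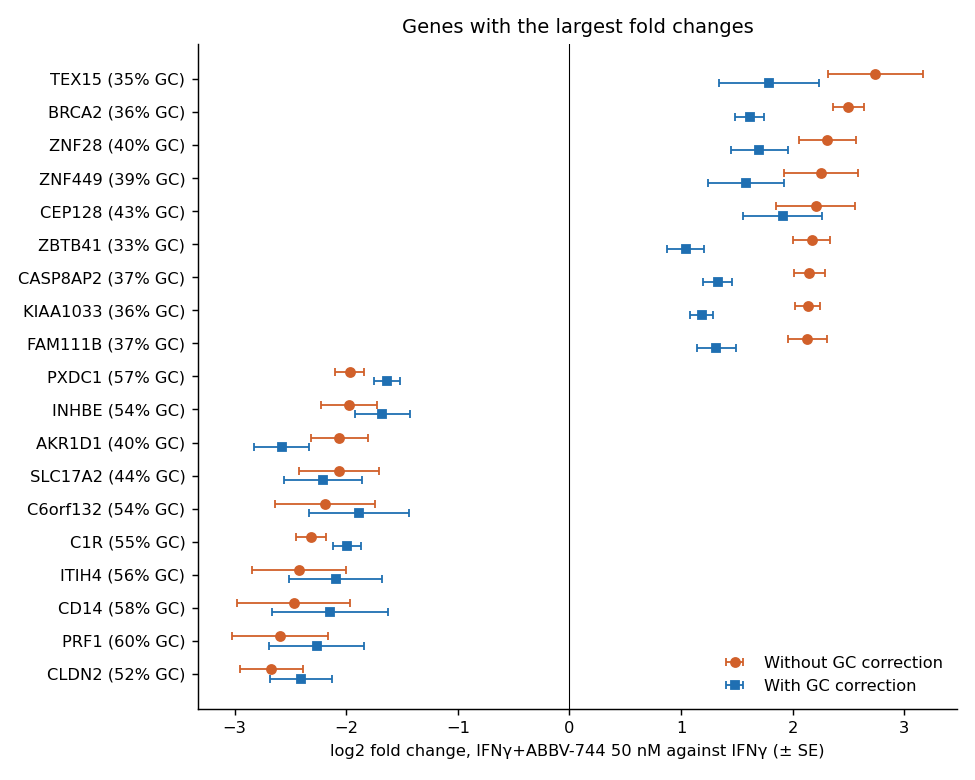
Log2 fold change (± SE) of the largest increases and decreases named in the text, without (orange circles) and with (blue squares) correction for GC content, with each transcript's GC content in brackets. With the correction all the increases shown and 8 of the 10 decreases lie closer to 0, and AKR1D1 and SLC17A2 lie farther from it.

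Genes of the IFNγ programme moved in both directions. Of 14 tested signalling genes, 1 rose and 2 fell in both fits, beside 11.8% and 11.5% of all genes, so the list's counts do not stand out. IRF1 measured 218, 215 and 228 CPM with the inhibitor beside 209.8, 226 and 252 CPM without it, with overlapping groups (log2 fold change -0.038, SE 0.081, adjusted p = 0.715), and was called higher only after the correction (0.24, adjusted p = 0.00674). STAT2 (-0.71, corrected -0.48) and IRF9 (-0.61, corrected -0.30), subunits of the ISGF3 complex, fell. PIAS1 (1.25, corrected 0.70), an inhibitor of STAT signalling, rose, and JAK2 rose without the correction only (1.37, corrected 0.50).

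Among 26 tested effectors, 2 rose and 7 fell in both fits, beside 11.8% and 11.5% of all genes. Their median log2 fold change was -0.22 without and -0.42 with the correction, beside -0.017 and 0.0017 for all genes. WARS, the tryptophanyl-tRNA synthetase that IFNγ induces, measured 45.6, 50.4 and 57.5 CPM with DMSO, 1043, 1183 and 1087 CPM with IFNγ and 618, 621 and 621 CPM with IFNγ+ABBV-744 (log2 fold change -0.81, SE 0.071, adjusted p = 3.02e-11, corrected -0.56). ICAM1, the adhesion ligand of leukocyte integrins, measured 72.9, 67.0 and 66.5 CPM, 170.0, 216 and 223 CPM and 110.2, 109.9 and 99.7 CPM in the same order (log2 fold change -0.91, SE 0.095, adjusted p = 1.32e-09, corrected -0.57). Both lay between the untreated and the IFNγ level. IL18BP (-1.39, corrected -1.06), the soluble antagonist of interleukin 18, IFI30 (-0.94, corrected -0.63), a lysosomal thiol reductase for antigen processing, APOL1 (-0.79, corrected -0.54) and the ubiquitin-like UBD (-0.24, corrected -0.43) fell as well. PARP14, an ADP-ribosyltransferase, went the other way, from 180.3, 192 and 177 CPM to 395, 375 and 359.7 CPM (log2 fold change 1.06, SE 0.079, adjusted p = 7.94e-13, corrected 0.74), and so did the peptidase LAP3 (0.29, corrected 0.45). The guanylate-binding protein GBP1 was not called without the correction (-0.28) and was lower with it (-0.82, adjusted p = 1.15e-04).

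Antigen presentation leaned lower, with 11 of 19 genes lower and 1 higher without the correction, and 6 and 1 in both fits. The shares of all genes were 24.3% lower and 27.4% higher without the correction, and 11.5% and 11.8% in both fits. In the corrected fit by itself 7 were lower and 2 higher, beside 18.2% and 16.3% of all genes. The list had a median transcript GC content of 53.9%, beside 47.5% for all genes tested. HLA-E, the ligand of NKG2A, measured 882, 848 and 871 CPM with IFNγ and 549, 529.5 and 576 CPM with the inhibitor (log2 fold change -0.63, SE 0.07, adjusted p = 3.87e-09, corrected -0.31). HLA-B (-0.57, corrected -0.31), TAP2 (-0.39, corrected -0.31), one chain of the peptide transporter, and PSMB9 (-0.43, corrected -0.37), a subunit of the immunoproteasome, fell too. B2M (-0.18, corrected -0.86), the light chain of class I molecules, fell more after the correction, and its uncorrected call was lost without IFNγ replicate 1 (-0.11), without IFNγ replicate 2 (-0.18) and without IFNγ+ABBV-744 replicate 2 (-0.16). ERAP2, a trimming aminopeptidase, rose from 100.1, 95.3 and 76.9 CPM to 178, 164 and 189 CPM (log2 fold change 0.98, SE 0.099, adjusted p = 5.41e-10, corrected 0.45). NLRC5, the transactivator of class I genes, measured 0.049 and was not called without the correction. Reads of the class I genes can be shared between near-identical genes, and reads that align to several places were not counted.

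Antiviral genes split, with 4 of 24 rising and 9 falling in both fits, beside 11.8% and 11.5% of all genes. IFITM1, which blocks virus entry, measured 0, 0.222 and 0 CPM with DMSO, 13.6, 10.9 and 8.95 CPM with IFNγ and 2.17, 3.96 and 2.49 CPM with IFNγ+ABBV-744 (log2 fold change -1.95, SE 0.30, adjusted p = 1.59e-06, corrected -1.62). MX1 (-1.25, corrected -1.62), a dynamin-like GTPase, OAS1 (-0.62, corrected -1.11) and OAS2 (-0.66, corrected -0.62), double-stranded RNA sensors, IFI6 (-0.87, corrected -0.54), ISG20 (-0.80, corrected -0.51) and BST2 (-0.78, corrected -0.44), which tethers virions, fell as well. XAF1, a partner of the apoptosis inhibitor XIAP, rose from 34.1, 21.8 and 26.3 CPM to 67.7, 57.6 and 70.2 CPM (log2 fold change 1.26, SE 0.14, adjusted p = 1.88e-09, corrected 0.93). The RNA sensor DDX58, which encodes RIG-I (1.43, corrected 0.84), IFIT1 (0.92, corrected 0.59) and SAMD9 (1.92, corrected 1.02) rose too.

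**Figure D4:**
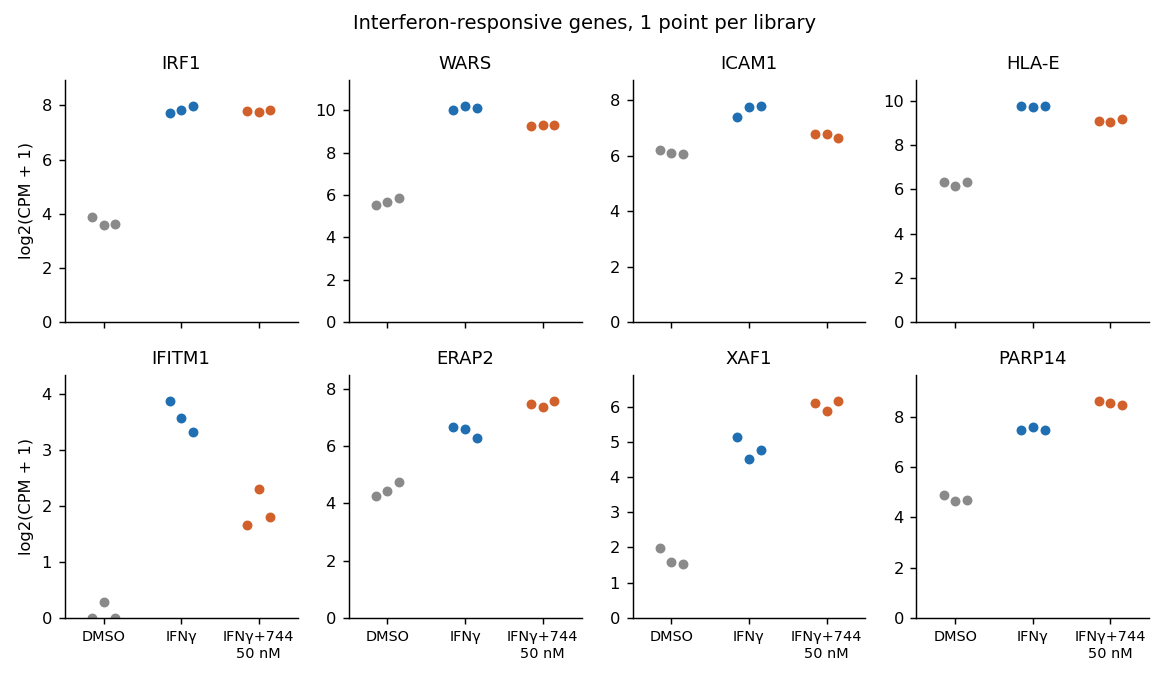
Level of 8 interferon-responsive genes, as log2(CPM + 1), in the DMSO, IFNγ and IFNγ+ABBV-744 50 nM libraries, with 1 point per library. WARS, ICAM1, HLA-E and IFITM1 lie between the other groups with the inhibitor, ERAP2, XAF1 and PARP14 lie above the IFNγ level, and IRF1 stays within it.

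The promoters of these genes show the elements that interferon-activated factors and IRF proteins read, and they are printed for genes that fell and genes that rose so that the groups can be set side by side. Promoters were taken from RefSeq (GRCh38.p14, 250 bases before to 50 after the start), which held 62 of the 83 tested members of the 4 interferon lists. The letters searched were TTCNNNGAA for the GAS element, which reads the same on both strands, and GAAA, any 2 bases and GAAA again, on either strand, for the ISRE core. Matches of the 2 motifs may overlap. At least one of them occurred in 11 of 18 promoters of members that fell in both fits, in 4 of 7 of members that rose, and in 23 of 37 of the other members. Over all 27305 promoters the share was 11.1%, with GAS in 7.88% and ISRE in 3.65%. Below, each motif is in capitals with up to 10 bases on either side, and IRF1 stands for members that were not called in both fits.
IRF1 GAS, chr5:132490879-132490907, minus strand: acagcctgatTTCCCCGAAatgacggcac
ICAM1 GAS, chr19:10271035-10271063, plus strand: ggcgcgaggtTTCCGGGAAagcagcaccg
IRF9 GAS, chr14:24161192-24161220, plus strand: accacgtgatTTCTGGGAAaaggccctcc
BST2 GAS, chr19:17405748-17405776, minus strand: cccacctcctTTCTGGGAAactgaaactg
ISG20 ISRE, chr15:88638937-88638966, plus strand: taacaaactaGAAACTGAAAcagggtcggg
IFITM1 ISRE, chr11:313990-314019, plus strand: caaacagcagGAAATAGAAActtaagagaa
PARP14 GAS, chr3:122680789-122680817, plus strand: cctgggagttTTCCAGGAAacgaaagcga
PARP14 ISRE, chr3:122680800-122680829, plus strand: tccaggaaacGAAAGCGAAAgagtcaaagt
IFIT1 ISRE, chr10:89392497-89392526, plus strand: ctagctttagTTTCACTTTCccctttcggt
SAMD9 ISRE, chr7:93118096-93118125, minus strand: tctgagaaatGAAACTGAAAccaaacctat
ICAM1, IRF9, BST2, ISG20 and IFITM1 fell, and PARP14, IFIT1 and SAMD9 rose. The same letters stood before genes of both directions, and a match describes the window without showing that a factor was bound.

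Transcripts of many secreted plasma proteins were lower. Of 35 tested plasma protein genes, 21 fell and 3 rose in both fits, beside 11.5% and 11.8% of all genes. In the corrected fit by itself 22 were lower and 5 higher, beside 18.2% and 16.3% of all genes. The list had a median transcript GC content of 53.0%, beside 47.5% for all genes tested. Their median log2 fold change was -0.44 without and -0.27 with the correction. VTN, vitronectin, measured 90.6, 94.5 and 101 CPM in the IFNγ libraries and 28, 19.5 and 25.1 CPM in the IFNγ+ABBV-744 libraries (log2 fold change -1.95, SE 0.12, adjusted p = 1.89e-14, corrected -1.61). AHSG, the calcification inhibitor fetuin-A, measured 2094, 2388 and 2192 CPM in the IFNγ libraries and 972, 919.7 and 999 CPM in the IFNγ+ABBV-744 libraries (log2 fold change -1.19, SE 0.071, adjusted p = 6.32e-15, corrected -0.87). The groups of both genes were far apart. SERPINC1 (-1.15, corrected -1.0), antithrombin, C3 (-0.70, corrected -0.36), the central complement protein, TF (-0.43, corrected -0.81), transferrin, and SERPINA1 (-0.55, corrected -0.25), alpha-1-antitrypsin, fell too. APOB (0.83, corrected 0.62), the structural protein of VLDL and LDL, FGB (1.04, corrected 0.60), a fibrinogen chain, and AFP (0.83, corrected 0.17) rose. ALB was not called without the correction (0.18) and was lower with it (-0.30, adjusted p = 0.00203).

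While 11.5% of all genes fell and 11.8% rose in both fits, in bile acid synthesis and transport 6 of 14 tested genes fell and 0 rose. Besides AKR1D1 these were SLC51B (-1.26, corrected -1.05), a subunit of the basolateral transporter OST, BAAT (-0.97, corrected -1.41), which conjugates bile acids, HSD3B7 (-0.81, corrected -0.49) and CYP27A1 (-0.72, corrected -0.39), enzymes of side-chain and ring modification, and ABCC2 (-0.42, corrected -0.51), the canalicular pump MRP2. CYP7A1, the rate-limiting enzyme, was too scarce to be tested.

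Of the cholesterol genes 5 of 24 were lower and 2 higher in both fits, beside 11.5% and 11.8% of all genes. DHCR7, which takes the last step of the Kandutsch-Russell pathway, measured 87.8, 128 and 112 CPM in the IFNγ libraries and 31.1, 44.4 and 47.0 CPM in the IFNγ+ABBV-744 libraries (log2 fold change -1.41, SE 0.13, adjusted p = 1.52e-10, corrected -1.07). The groups did not overlap. FDPS (-0.71, corrected -0.38), FDFT1 (-0.50, corrected -0.44) and the regulator SREBF2 (-0.72, corrected -0.38) fell, whereas IDI1 (0.82, corrected 0.37) rose. In fatty acid and triglyceride metabolism 7 of 27 fell and 1 rose. The lipid droplet coat PLIN2 (-0.87, corrected -0.78), GPD1 (-1.12, corrected -0.79), GPAM (-0.44, corrected -0.90) and the desaturase SCD (-0.41, corrected -0.37) fell. ACADM, the medium-chain dehydrogenase of beta-oxidation, rose from 31.6, 29.8 and 19.6 CPM to 75.7, 79.1 and 68.2 CPM (log2 fold change 1.48, SE 0.14, adjusted p = 8.72e-11, corrected 1.36).

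Of the transcription factors that set hepatocyte identity, 2 of 24 were higher and 1 lower in both fits, near or under the background share of all genes. ONECUT2 (0.90, corrected 0.57) rose and NFE2 (-1.12, corrected -0.81) fell. HNF4A measured 148, 153 and 171 CPM in the IFNγ libraries and 179.6, 165 and 175 CPM in the IFNγ+ABBV-744 libraries and was called only after the correction (0.16, corrected 0.48). NR1H4, the bile acid receptor FXR, measured 59.7, 64.4 and 50.9 CPM and 55.7, 52.6 and 54.2 CPM, with overlapping groups (log2 fold change -0.086, SE 0.11, adjusted p = 0.552), and was called lower only after the correction (-0.60, adjusted p = 2.28e-05).

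Cell-cycle genes also fell in part, with 12 of 36 lower and 4 higher in both fits, beside 11.5% and 11.8% of all genes. PLK1, a mitotic kinase, measured 123, 164 and 177 CPM in the IFNγ libraries and 58.1, 55.4 and 52.5 CPM in the IFNγ+ABBV-744 libraries (log2 fold change -1.46, SE 0.11, adjusted p = 1.19e-12, corrected -1.12). CDC20 (-0.83, corrected -0.49) and the helicase subunits MCM7 (-1.11, corrected -0.77), MCM5 (-0.79, corrected -0.45) and MCM2 (-0.74, corrected -0.40) fell. TOP2A, topoisomerase II of dividing cells, rose from 294, 298 and 218 CPM to 818, 775 and 806 CPM (log2 fold change 1.59, SE 0.09, adjusted p = 3.68e-15, corrected 0.92), and CDK6 (1.00, corrected 0.40) and PCNA (0.26, corrected 0.21) rose with it. MKI67, which marks dividing cells, measured 0.39 (corrected 0.53), and its direction turned with a correction for length.

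Of 19 tested genes of the amino acid starvation and stress response, 10 fell in both fits and 0 rose, beside 11.5% and 11.8% of all genes. Their median log2 fold change was -0.58 without and -0.35 with the correction. TRIB3, a pseudokinase induced by ATF4, measured 154, 162 and 165 CPM in the IFNγ libraries and 69.9, 67.2 and 69.3 CPM in the IFNγ+ABBV-744 libraries (log2 fold change -1.20, SE 0.091, adjusted p = 1.36e-12, corrected -0.88). PHGDH, the first enzyme of serine synthesis (-1.01, corrected -0.74), the chaperone HSPA5 (-0.79, corrected -0.97) and XBP1 (-0.52, corrected -0.94), a factor of the unfolded protein response, fell as well. ATF4 itself was lower without the correction only (-0.37, corrected -0.031). Of 12 tested genes of paraspeckles and nuclear long non-coding RNAs, 3 rose and 4 fell in both fits, beside 11.8% and 11.5% of all genes. Their median log2 fold change was -0.14 without and -0.19 with the correction. MALAT1 (1.17, corrected 0.82), KCNQ1OT1 (0.92, corrected 0.73) and NEAT1 (0.57, corrected 0.42), the scaffold of paraspeckles, rose. The paraspeckle protein RBM14 (-1.04, corrected -0.76) was among those that fell. A partial list of genes that the study names had 34 tested members. Of these, 21 fell and 2 rose in both fits, beside 11.5% and 11.8% of all genes. The list leaves out genes that the study reports as raised, such as HEXIM1, CNNM4 and USP53. The study picked its genes on cells given BET inhibitors, and its text does not say whether libraries of this series were among them. The list is therefore not taken as independent evidence of direction. It includes FUT6 (-1.87, corrected -1.53), a fucosyltransferase, and IL1RN (-1.61, corrected -1.40), the interleukin 1 receptor antagonist.

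**Figure D5:**
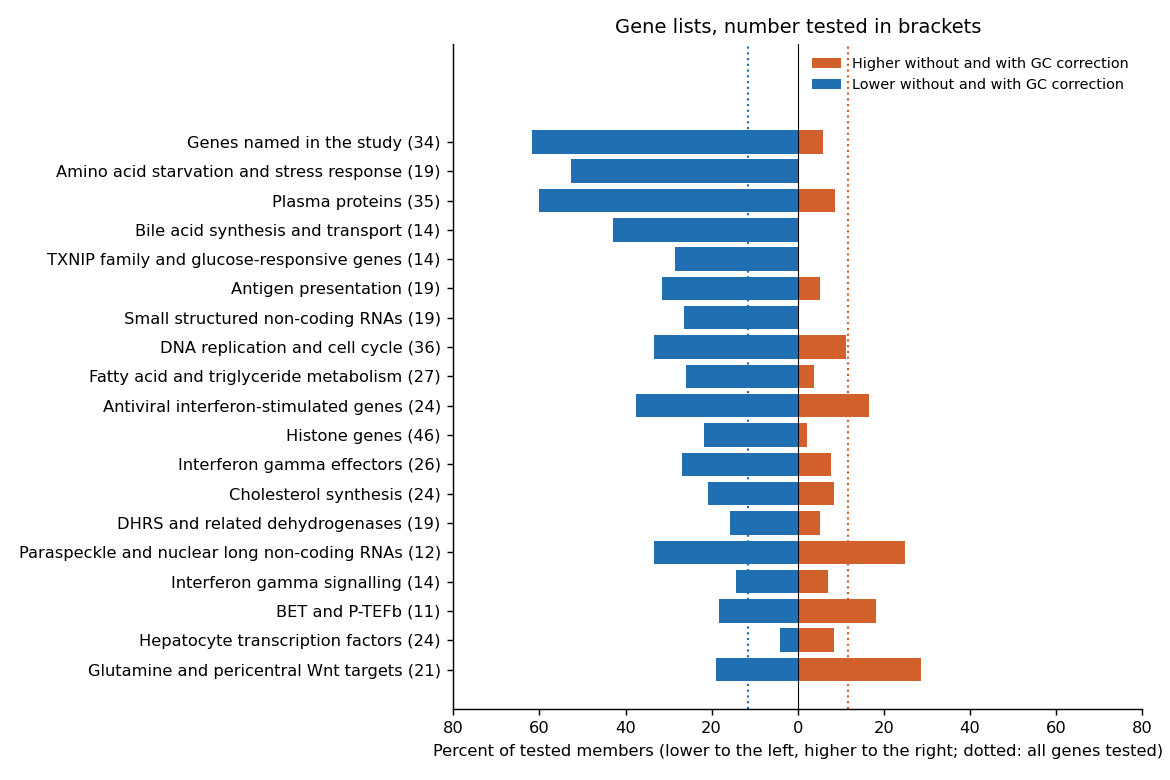
Percent of the tested members of each gene list that were higher (orange, right) or lower (blue, left) both without and with correction for GC content, with the number tested in brackets and dotted lines at the shares of all genes tested, 11.8% and 11.5%. Plasma proteins, genes named in the study and the amino acid stress list reach furthest to the left.

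Whether IFNγ altered the response was tested as the effect of ABBV-744 50 nM with IFNγ minus its effect without IFNγ, over 12 libraries in which each effect had its own controls. At an adjusted p of at most 0.05, 2866 of 11451 genes had a positive difference (25.0%) and 3039 a negative one (26.5%). With the correction these were 1071 and 1264, and 894 (7.81%) and 718 (6.27%) were called in both fits. The 3 libraries of ABBV-744 50 nM alone had rho values with GC content of 0.602, 0.714 and 0.57, on the far side of the DMSO libraries at 0.102 to 0.341, so the GC trends of the effects with and without IFNγ ran in opposite directions.

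GLUL carried a large difference, at log2 -1.65, SE 0.11, adjusted p = 6.06e-12, and -1.79, adjusted p = 5.57e-16 with the correction. Its effect alone was 0.025. DHRS2 rose in both settings, by 1.72 without and 1.25 with IFNγ on the log2 scale, and the difference (log2 -0.50, SE 0.092, adjusted p = 5.88e-05) was no longer called with the correction (-0.17, adjusted p = 0.163). C1R, whose level without IFNγ was low, differed by -2.51 (corrected -1.98), ITIH4 by -2.16 (corrected -1.62), PDGFB by -2.25 (corrected -1.68), FGFBP3 by -2.41 (corrected -1.96) and IFITM1 by -3.58 (corrected -3.06). Of these 5 the calls of IFITM1 and PDGFB were lost with the correction. IFITM1 had 0 to 1 reads in a DMSO library and 0 to 2 with ABBV-744 alone, so its estimate rests on next to no signal without IFNγ. It was -5.30 without DMSO replicate 2 and -2.70, with no call, without replicate 3 of ABBV-744 alone, and its call was lost without any of 7 other libraries. On the positive side stood ZFP37 at 4.20 (corrected 3.11), CD36, a fatty acid carrier, at 3.81 (corrected 2.42), SAMD9 at 3.54 (corrected 2.36), TEX15 at 3.52 (corrected 2.23) and LOC727896, which had no GC value, at 3.41. The call of SAMD9 was lost with the correction. Without replicate 1 of ABBV-744 alone SAMD9 was at 6.38 and TEX15 at 4.59. All 5 were scarce, with 0 to 7 reads in any library of ABBV-744 alone and at most 8.75 CPM in any group mean.

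Several decreases had a difference between the settings that was not called. AKR1D1 measured 13.4, 9.99 and 10.7 CPM with DMSO and 2.68, 2.83 and 3.18 CPM with ABBV-744 alone, and its difference between the effects was -0.15 (SE 0.42). CLDN2 measured 15.3, 11.8 and 15.5 CPM and 4.47, 3.46 and 1.27 CPM, with a difference of -0.54 (SE 0.47). These values do not show that the effects are equal. Of the plasma protein genes 12 of 36 had a negative difference in both fits and 3 a positive one, beside 6.27% and 7.81% of all genes.

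At the matched dose of 50 nM, ABBV-075 and ABBV-744 were compared directly in the presence of IFNγ, as 1 pair of compounds. Of 11126 genes, 1860 were higher with ABBV-075 (16.7%) and 1892 lower (17.0%), and 1386 (12.5%) and 1587 (14.3%) were called in both fits. DHRS2 was higher with ABBV-075, at 14063, 15271 and 15060.0 CPM (log2 fold change 1.48, SE 0.087, adjusted p = 2.80e-18), and GLUL was slightly higher (log2 fold change 0.47, SE 0.083, adjusted p = 1.57e-05). HEXIM1 was higher by 1.49 (corrected 1.51) on the log2 scale. The genes that differed most were EFR3B (4.35, corrected 4.25), THEMIS2 (3.06, corrected 3.01), TMEM191A (2.56, corrected 2.46), BAIAP3 (2.51, corrected 2.21) and DPYSL3 (2.49, corrected 2.46), higher with ABBV-075, and VAV3 (-3.84, corrected -3.76), NPSR1-AS1 (-3.45, corrected -3.31), NR1H4 (-3.44, corrected -3.34), TRIM22 (-3.37, corrected -3.23) and INHBC (-3.31, corrected -3.36), lower. Without replicate 1 of IFNγ+ABBV-744 50 nM, THEMIS2 was at 3.65 and TMEM191A at 3.26. EFR3B, a scaffold of phosphatidylinositol 4-kinase, measured 2.65, 1.41 and 2.49 CPM with ABBV-744 and 41.8, 44.3 and 46.7 CPM with ABBV-075.

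NR1H4 was lower with ABBV-075, measuring 55.7, 52.6 and 54.2 CPM with ABBV-744 and 5.97, 5.17 and 3.01 CPM with ABBV-075 (log2 fold change -3.44, SE 0.18, adjusted p = 1.42e-19). TRIM22, an antiviral ubiquitin ligase that IFNγ induces, measured 34.7, 39.3 and 31.5 CPM and 4.47, 2.45 and 2.71 CPM. Over all genes 14.3% were lower with ABBV-075 than with ABBV-744 in both fits and 12.5% higher. Of the IFNγ effectors 17 of 26 were lower with ABBV-075 than with ABBV-744 in both fits and 0 higher. For antiviral genes these counts were 13 and 1 of 24, for bile acid genes 10 and 0 of 13, and for cholesterol genes 6 and 9 of 24. AKR1D1 was lower with ABBV-075, at 0.249, 1.09 and 0 CPM beside 3.62, 4.52 and 3.04 CPM with ABBV-744, a log2 difference of -2.90 (corrected -2.80) that was -4.43 without replicate 2 of IFNγ+ABBV-075.

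Raising ABBV-744 from 50 nM to 500 nM in the presence of IFNγ called few genes. Of 11022 genes, 155 were higher at 500 nM (1.41%) and 32 lower (0.29%), and 83 (0.753%) and 10 (0.0907%) were called in both fits. These counts rest on single libraries: without replicate 1 of the 500 nM group they were 334 and 139, and without its replicate 2 they were 59 and 5. DHRS2 was higher at 500 nM, at 7942, 8013 and 8334 CPM beside 5450.3, 5371 and 5616 CPM at 50 nM (log2 fold change 0.59, SE 0.082, adjusted p = 2.90e-05). GLUL was not called (log2 fold change 0.13, SE 0.082, adjusted p = 0.479). HEXIM1 was higher (log2 fold change 0.55, SE 0.12, adjusted p = 0.00472; 0.41 and not called without replicate 2 of the 50 nM group), and AKR1D1 was not called (log2 fold change -0.73, SE 0.41, adjusted p = 0.433). Neither p shows that the 2 doses act alike on GLUL or AKR1D1.

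The 5 largest differences upward at 500 nM were SART1 (1.58, corrected 1.43), a splicing factor, EFR3B (1.49, corrected 1.41), the small nucleolar RNAs SNORD89 (1.39, corrected 1.41) and SNORA20 (1.07, corrected 1.15), and MTRNR2L1 (1.07), whose reads can be shared with mitochondrial ribosomal RNA. Downward they were GSTA1 (-1.37, corrected -1.30), a glutathione transferase, GLIPR1 (-1.06, corrected -0.95), COX10-AS1 (-0.90, corrected -0.81), SLC16A6 (-0.87, corrected -0.79), a monocarboxylate carrier, and FAS (-0.75, corrected -0.68), the death receptor. With the correction the calls of SART1, EFR3B, GSTA1, COX10-AS1 and SLC16A6 were lost. These 5, and SNORD89, GLIPR1 and FAS, also lost their call without replicate 2 of the 500 nM group, at 1.30 for SART1, 1.23 for EFR3B, -1.34 for GSTA1, -0.71 for COX10-AS1, -0.81 for SLC16A6, 1.02 for SNORD89, -1.01 for GLIPR1 and -0.73 for FAS. All of these 8 but SNORD89 and FAS lost it as well without at least 1 library of the 50 nM group. The calls of SNORA20 and MTRNR2L1 held without each library in turn.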

How the data were processed

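Libraries were made from total RNA of HepG2 cells, 24 in all, of which 6 carry the comparison described here. Per the study's methods and the submitters' processing notes, reads were trimmed with Trimmomatic 0.33 and aligned to GRCh38 with STAR 2.7.1. The authors deposited gene counts for each library, and the deposited column of sense-strand reads (the fourth) was used unchanged. The annotation behind the counts is not given in the sources used here. Rows for unmapped, multimapping, featureless and ambiguous reads were left out.

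Counts were tested in edgeR 4.0.16 (R 4.3.3) with filterByExpr, TMM scaling, a quasi-likelihood test and Benjamini-Hochberg adjustment. The standard error is the fold change divided by the root of F. CPM values use TMM scaling over all 24 libraries, whereas each fit scaled only the libraries it compared. GC content and length are those of the longest transcript of each gene in GENCODE 44, chosen without regard to which transcript these cells express. The GC correction fitted a lowess curve (span 0.3) to each library's log2 CPM deviations and entered it as an offset. Genes without a GC value were left uncorrected. The members and gene lists were chosen with earlier results of these data known.

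Genes are named as DHRS2 and GLUL, as the 10 largest fold changes in each direction of the main comparison and the 5 largest in the others, among genes that passed an adjusted p of at most 0.05, had non-overlapping groups and reached a log2 CPM of 1 on average, and as members of the lists. Some genes that the rule names are not reported here. Alternatives were DESeq2 1.42.0, other scaling, filters and samples, counts of both strands, corrections for GC content and length, a replicate block and leaving out each library.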

Additional observations from a re-analysis of the deposited data

Results flagged for a closer look

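The results below were set apart because the effect of ABBV-744 50 nM differed with and without IFNγ in a test of the difference itself. Of 11451 genes, 2866 had a positive difference and 3039 a negative one, and with correction for GC content these were 1071 and 1264. GLUL differed by -1.65 and DHRS2 by -0.50 on the log2 scale, the latter without a call after the correction. ZFP37 differed by 4.20, CD36 by 3.81, SAMD9 by 3.54, TEX15 by 3.52 and LOC727896 by 3.41. IFITM1 differed by -3.58, C1R by -2.51, FGFBP3 by -2.41, PDGFB by -2.25 and ITIH4 by -2.16. The calls of SAMD9, IFITM1 and PDGFB were also lost with the correction, and IFITM1 had at most 2 reads in any library without IFNγ.

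Reads on the strand opposite to a gene entered only an alternative that counted both strands together. Their share of the reads on genes was at least 1.68% in each IFNγ+ABBV-744 50 nM library and at most 1.63% in each IFNγ library.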

How the results depend on the processing

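The 3060 increases with ABBV-744 50 nM became 1817 with GC correction, 1813 with GC correction and a replicate block and 1823 with GC and length correction, and the 216 past a log2 fold change of 1.5 became 18, 18 and 15, or 117 with length correction alone. The 41 decreases past 1.5 became 65 with DESeq2, 129 without a filter, 24 with at least 10 counts in every library and 67 with all 24 libraries fitted together. Without 1 library they were 50 to 79. They were 63 without IFNγ replicate 1 and 77, 75 and 79 without IFNγ+ABBV-744 replicates 1, 2 and 3. In these runs 11307 to 11376 genes passed the filter, beside 11150 with all libraries. The interaction's 2866 positive and 3039 negative genes became 1071 and 1264 with GC correction. Between 500 nM and 50 nM, the 155 higher genes became 85 with DESeq2, 87 with GC and 98 with length correction, and the 32 lower genes 18 with DESeq2, 11 with GC correction and 58 with the block. DESeq2 gave an adjusted p to 3458 genes here, beside 11022 in edgeR's fit, so its counts come from a smaller set. Leaving out 1 library gave 59 to 334 higher and 5 to 139 lower, the lowest of both without replicate 2 and the highest without replicate 1 of the 500 nM group. Over genes of a mean log2 CPM of at least 3, rho with GC content was -0.705. Apart from the length and GC corrections' own construction, the cause of these shifts was not tested.

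Direction turned for 6 named genes. BRD2 and IRF1, both uncalled, went from -0.031 and -0.038 to 0.24, 0.24 and 0.21 and to 0.24, 0.24 and 0.22 with GC correction, GC correction with the block, and GC and length correction. ALB went from 0.18 to -0.30, -0.30 and -0.24. MKI67 was -0.031 with length correction, and ATF4 was 0.025 and RN7SK 0.10 with GC and length correction.

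Library numbers showed no clear pairing of the samples in the main comparison, though correlations this small cannot exclude one. Deviations of same-numbered IFNγ and IFNγ+ABBV-744 libraries correlated at -0.032 to 0.019, and not every library correlated best with its own number. A replicate block gave 3071 higher and 2690 lower genes, 216 and 40 of them past 1.5. For same-numbered libraries of IFNγ+ABBV-744 50 nM the correlations were 0.004 to 0.056 with IFNγ+ABBV-075 and 0.008 to 0.080 with IFNγ+ABBV-744 500 nM. In these direct comparisons the block gave 2028 higher and 2055 lower genes for ABBV-075, beside 1860 and 1892 without it. For 500 nM it gave 209 and 58, beside 155 and 32. Of the single-gene values, 30 lost and 14 gained their call under GC or length correction and 516 kept direction and call. Leaving out 1 library cost 37 calls, added 4 and left 1008 as they were, and the other settings cost 7, added 3 and left 1147. Depth limits the scarce genes, whose tests rest on few reads.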

Other observations

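Most transcripts of replication-dependent histone genes lack poly(A) tails, and they were well covered in these libraries. Of 46 tested histone genes, 26 were lower and 1 higher with ABBV-744 50 nM, and 10 and 1 in both fits. The shares of all genes were 24.3% and 27.4%, and 11.5% and 11.8% in both fits. In the corrected fit by itself 12 were lower and 7 higher, beside 18.2% and 16.3% of all genes. The list had a median transcript GC content of 57.0%, beside 47.5% for all genes tested. HIST1H2BO had mean levels of 494 CPM with IFNγ and 186 CPM with the inhibitor (log2 fold change -1.39, corrected -1.06), and HIST1H2BM 57.6 CPM and 18.5 CPM (log2 fold change -1.62, corrected -1.30). Against ABBV-744 50 nM, both other treatments with IFNγ had more histone transcripts. With ABBV-075 50 nM 29 of 45 were higher and 0 lower in both fits, beside 12.5% and 14.3% of all genes. With ABBV-744 500 nM 14 of 45 were higher and 0 lower, beside 0.753% and 0.0907% of all genes. HIST1H2AC, at a mean of 731 CPM with ABBV-744 50 nM, measured 1287 CPM with ABBV-075 and 1050.0 CPM with ABBV-744 500 nM (log2 0.87 and 0.55). The copies of histone genes are near-identical and reads with several alignments were not counted, so single members are uncertain.

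The small structured RNAs of signal recognition, splicing and RNA processing were lower in 15 of 19 cases, in 5 of them in both fits, with 0 higher. Over all genes 24.3% were lower and 27.4% higher, and 11.5% and 11.8% in both fits. The median transcript GC content was 53.2% in this list and 47.5% in all genes tested. RN7SK, which holds P-TEFb inactive, had mean levels of 55831 CPM and 41543 CPM (log2 fold change -0.41, adjusted p = 1.03e-06 in edgeR's test) but -0.073 after the correction (adjusted p = 0.43). In the TXNIP and glucose-responsive list 4 of 14 were lower and 0 higher in both fits, beside 11.5% and 11.8% of all genes. TXNIP, which restrains glucose uptake, was not called with ABBV-744 50 nM (log2 fold change 0.23, adjusted p = 0.148). It was higher with ABBV-075 50 nM in the direct comparison, at 138 CPM beside 35.9 CPM.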
